A study of Drosophila melanogaster with 12 samples.

Results

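The transcripts described are those of 10 genes that handle stored fat in *Drosophila melanogaster*, from the surface of the lipid droplet to the last step of mitochondrial β-oxidation. They were taken by name from the deposited gene table, in which all 10 were found among 17558 genes. *Lsd-1* and *Lsd-2* encode the perilipins of the droplet surface, *bmm* and *Hsl* encode lipases, *mdy* encodes a diacylglycerol acyltransferase, *whd* encodes carnitine palmitoyltransferase, and *Mtpalpha*, *Thiolase*, *scu* and *yip2* encode mitochondrial β-oxidation enzymes. No sample value was used to choose them, but they were chosen with earlier results of these data known.

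RNA from whole adult females was sequenced in 12 libraries of 10 females each, 3 libraries in each of 4 groups. The knockout groups carried a conditional allele of the estrogen-related receptor gene *ERR*, a nuclear receptor that controls metabolic genes. They received a heat shock at 37 °C at 0 to 2 d of age and another 24 h later, and were collected 7 d after heat shock. The control groups were siblings of the same genotype with no heat shock, so that the effects of heat shock and of *ERR* loss cannot be told apart in either stock. Females of the cond.2 stock carry the mutant alleles ERR1 and ERR2 and depend on a transgene for receptor function, the GFP-tagged *ERR::GFP.FSFTF*, which heat shock removes at its FRT sites to leave an ERR1/ERR2 animal. In the cond.19-4 stock it is the fly's own *ERR* gene that was made excisable with FRT sites, over a chromosome with ERR2, which lacks the *ERR* coding sequence and some sequence of *atg18* and *CG7979*. Knockouts and controls of each stock therefore share ERR2, and the cond.2 groups also share ERR1. Excision follows a heat shock to the whole animal and is not limited to one tissue, and all females were fed wet yeast paste. The count table numbers the stocks in place of naming them, and the stock numbered 2 was read as cond.2 and the stock numbered 1 as cond.19-4. The sources used here do not state this match, and every stock name below rests on it.

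Triglyceride is held in droplets, in adult flies mainly in the fat body and, in females, also in the growing oocyte. Perilipins coat the droplets and govern the access of lipases, which free fatty acids from the store. The acids are activated with coenzyme A, passed into mitochondria as carnitine esters and shortened in cycles of dehydrogenation, hydration, a further dehydrogenation and thiolysis. In adults the adipokinetic hormone Akh, the fly counterpart of glucagon, drives the release of this store.

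Totals ran from 17167432 to 20625801 counts per library, with a mean of 19194245. In the cond.2 stock the libraries numbered 1 stood farthest apart on the first principal component, the control at −23.5 and the knockout at 24.2, and values without both are given for *Lsd-1*, *mdy*, *whd*, *Thiolase* and *yip2*. All 10 genes passed the filter on low counts in every fit, with 418 to 8614 counts per library. Levels are in CPM, that is, counts relative to library size, with libraries scaled together by TMM (the trimmed mean of M values), and group values are mean ± SD of 3 libraries. A transcript was called changed at an adjusted p under 0.05 in edgeR's quasi-likelihood test, with p-values adjusted over all genes tested, and intervals of log2 differences are 95% intervals from the same fit. *ERR* itself stood at 10.0 ± 1.86 CPM in cond.2 controls and 10.1 ± 0.530 CPM in cond.2 knockouts (adjusted p = 0.988 at a log2 fold change of 0.0057, edgeR), a value that can include transcripts of the ERR1 allele and so does not measure excision of the transgene. In cond.19-4 females controls had 6.57 ± 1.10 CPM and knockouts 3.68 ± 0.390 CPM, a decline that was called (adjusted p = 0.0228 at a log2 fold change of −0.83, edgeR). The labelled tissue, whole body, was checked against marker transcripts. Counts of the germline gene *osk* ran from 13717 to 18388 per library, those of the neuronal gene *elav* from 61 to 104, and those of 5 male genes were 0 in every library for *Mst57Da* and *Mst84Da*, 0 to 3 for *roX2* and *Acp26Aa* and 3 to 38 for *roX1*. Muscle was present by *Mhc* (1532 to 2858 counts) and *Mf* (2274 to 5247). The flight muscle list also held *Mlp60A* (904 to 1668), *up* (732 to 1688), *wupA* (700 to 1324), *TpnC4* (153 to 567), *Act88F* (96 to 269) and *fln* (0 to 8). How much of the muscle RNA was that of flight muscle was not tested. Fat body was present by *Lsp2* (1076 to 5643), *fit* (1342 to 5219) and *Rfabg* (16132 to 28560), with *Fbp2* and *Lsp1gamma* at 0 to 6.

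Set beside each other per kilobase of gene length, the mitochondrial enzyme transcripts *scu*, *yip2* and *Thiolase* were the most abundant of the 10, and *Hsl* and *Lsd-1* the least. The highest mean over the 12 libraries belonged to *scu* (322 CPM per kb), which was above 98.2% of the genes with any count in the 12 libraries. *yip2* followed with 191 CPM per kb, *Thiolase* with 149.5, *Lsd-2* with 80.1, *Mtpalpha* with 72.1 and *whd* with 44.1. *bmm* had 31.9, *mdy* 19.0, *Hsl* 17.3 and *Lsd-1* 15.7 CPM per kb, and even *Lsd-1* was above 67.0% of the genes with any count. The spread over the 12 libraries followed another order. The highest library exceeded the lowest 6.02-fold for *mdy*, 2.57-fold for *whd* and 2.17-fold for *Lsd-1*, against 1.12-fold for *Hsl* and 1.15-fold for *Mtpalpha*, with the other 5 between 1.29 and 1.51-fold.

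**Figure D1:**
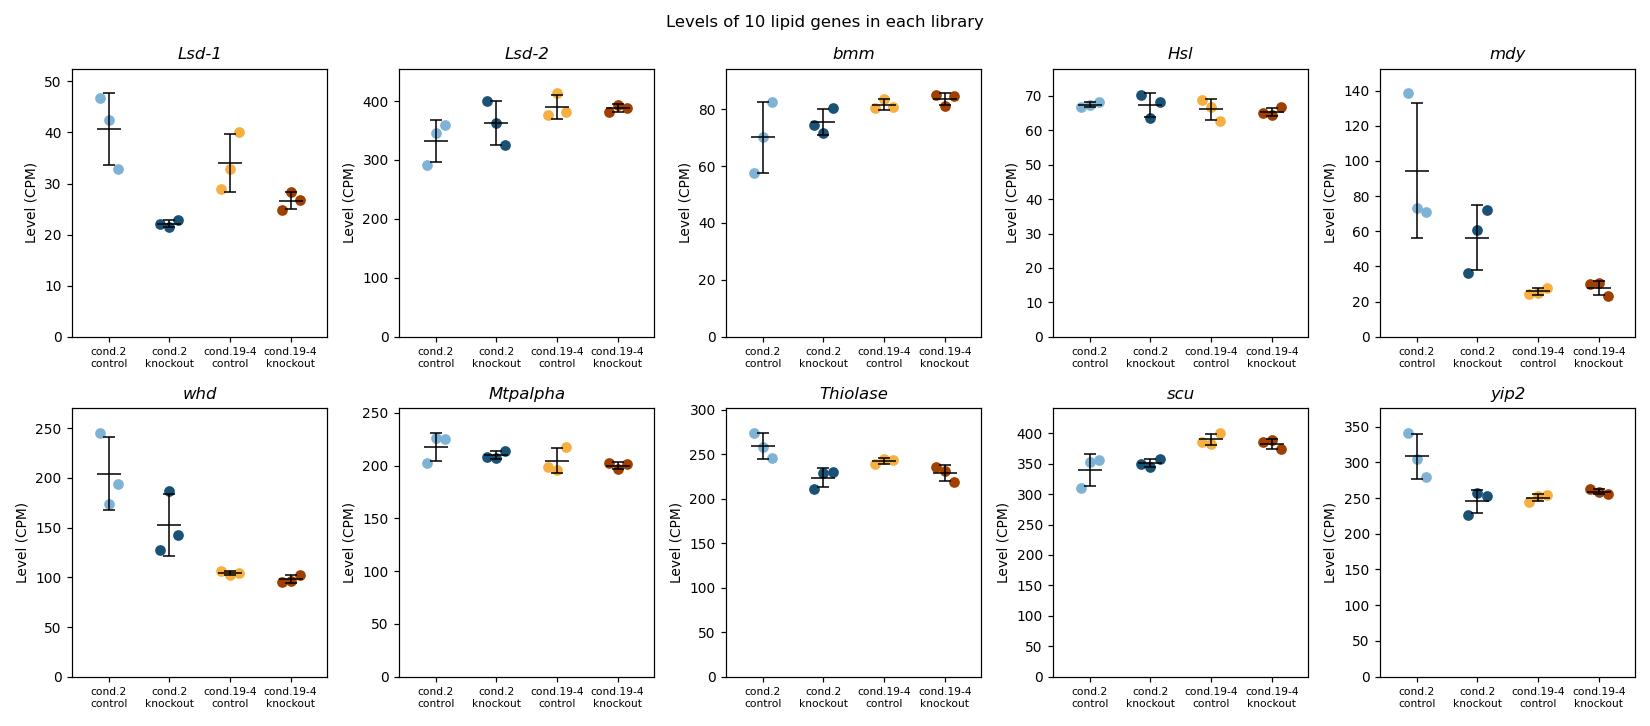
Levels of the 10 transcripts in CPM (vertical axis, from 0) in the 12 libraries, 1 point per library, with the mean and SD of the 3 libraries of each group as bars. *Lsd-1* lay between 21.5 and 22.8 CPM in the cond.2 knockouts, under all other libraries, while *mdy* and *whd* were spread widely in the cond.2 groups and narrowly in the cond.19-4 groups.

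*Lsd-1*, 1 of the 10 transcripts, was the only one called changed by a knockout. In the cond.2 stock it fell to 0.544 of its control level, and in the cond.19-4 stock its log2 fold change had the same sign but was not called. No other perilipin, lipase or β-oxidation transcript among the 10 was called in either stock.

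Coordinates are those of the count table and equal those of BDGP6 for all 10 genes. *Lsd-1* (FBgn0039114, chromosome 3R, 23763857 to 23766662, plus strand) encodes the perilipin that both protects the droplet and admits lipases to it when Akh signals, and flies without it become obese. Its level was 46.7, 42.4 and 32.9 CPM in the 3 cond.2 controls and 22.1, 21.5 and 22.8 CPM in the 3 cond.2 knockouts. The groups did not overlap, and the controls were spread more widely (40.7 ± 7.06 CPM) than the knockouts (22.1 ± 0.635 CPM). The log2 fold change was −0.88 (SE 0.13, interval −1.19 to −0.56, adjusted p = 0.0465, edgeR). This call was kept without control 3 (adjusted p = 0.0267) and lost without each of the other 5 libraries (log2 fold change −0.90 to −0.77, adjusted p = 0.0903 to 0.195). On all cond.2 libraries DESeq2 also called *Lsd-1* lower (adjusted p = 3.6e-05), and edgeR with library totals did not (adjusted p = 0.0574). Cond.19-4 females had 28.8, 32.9 and 40.1 CPM in controls and 24.9, 28.3 and 26.7 CPM in knockouts. Every knockout library was again under every control, the nearest being 28.3 and 28.8 CPM. The log2 fold change was −0.34 (SE 0.11, interval −0.59 to −0.10, unadjusted p = 0.00952, adjusted p = 0.144, edgeR). Without cond.19-4 control 1, the lowest of its group, it was −0.45 and passed the test (adjusted p = 0.0307, edgeR), and without control 3, the highest, it was −0.21 (adjusted p = 0.307, edgeR). The fold changes of the stocks differed by −0.52 (SE 0.19, interval −0.94 to −0.10), and this difference was not called (adjusted p = 0.159, edgeR). The *Lsd-1* gene overlaps *CG10214* on the opposite strand at its end, from 23766519 to 23767488, and it is not stated whether the counting used strand. *CG10214* itself had log2 fold changes of 0.08 in cond.2 (adjusted p = 0.635, edgeR) and −0.04 in cond.19-4 females (adjusted p = 0.829, edgeR).

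*Lsd-2* (FBgn0030608, chromosome X, 15069127 to 15076220, minus strand) encodes the other perilipin, which shields the store from lipases and is needed for normal fat content. It stood at 291, 345 and 359 CPM in cond.2 controls and 401, 362 and 325 CPM in cond.2 knockouts, and the groups overlapped. The log2 fold change of 0.13 was not called (interval −0.15 to 0.41, adjusted p = 0.551, edgeR). In the cond.19-4 stock, with 376, 414 and 382 CPM in controls and 381, 394 and 389 CPM in knockouts, it was −0.0057 (interval −0.11 to 0.10, adjusted p = 0.970, edgeR). The 2 perilipins thus had opposite signs in the cond.2 stock, with only *Lsd-1* called.

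The lipase transcripts differed little between knockouts and controls. *bmm* (FBgn0036449, chromosome 3L, 14776496 to 14786412, minus strand) encodes brummer, the counterpart of mammalian adipose triglyceride lipase, and flies without it become obese. Its level was 57.4, 70.3 and 82.5 CPM in cond.2 controls and 74.5, 71.6 and 80.5 CPM in cond.2 knockouts, so that the knockouts lay within the range of the controls. Cond.19-4 levels were 80.2, 83.7 and 80.8 CPM in controls and 85.0, 81.1 and 84.5 CPM in knockouts. The log2 fold changes were 0.11 in cond.2 (interval −0.21 to 0.42, adjusted p = 0.665, edgeR) and 0.04 in cond.19-4 (interval −0.06 to 0.14, adjusted p = 0.763, edgeR). *Hsl* (FBgn0034491, chromosome 2R, 20257650 to 20261726, plus strand), whose product is the fly hormone-sensitive lipase and acts with *Lsd-1* at the droplet, was the steadiest of the 10. It ran from 66.8 to 68.2 CPM in cond.2 controls, 63.6 to 70.3 in cond.2 knockouts, 62.8 to 68.8 in cond.19-4 controls and 64.3 to 66.7 in cond.19-4 knockouts. Knockouts overlapped controls in each stock. Its log2 fold change was −0.0024 in cond.2 (interval −0.17 to 0.16) and −0.01 in cond.19-4 (interval −0.13 to 0.10), with adjusted p of 0.988 and 0.940 (edgeR), and its sign in cond.2 turned under other scalings of the libraries.

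*mdy* (FBgn0004797, chromosome 2L, 16816660 to 16826964, plus strand) encodes midway, a counterpart of mammalian diacylglycerol acyltransferase DGAT1, which makes triglyceride and is required in nurse cells for egg chambers to mature. It was the most variable of the 10. The cond.2 controls had 139, 73.5 and 71.0 CPM and the cond.2 knockouts 36.0, 60.6 and 72.3 CPM. Control 1 stood far above, and knockout 1 far below, the other libraries of their groups, and the groups overlapped by knockout 3. The log2 fold change of −0.74 (SE 0.33, interval −1.51 to 0.03) was not called (unadjusted p = 0.0563, adjusted p = 0.232, edgeR), and it was −0.37 without control 1, −0.51 without knockout 1 and −0.13 without both (adjusted p = 0.531, 0.486 and 0.610, edgeR). Cond.19-4 females had lower levels, 24.4, 25.0 and 28.0 CPM in controls and 30.0, 30.5 and 23.0 CPM in knockouts, all below every cond.2 library. The fold change there was 0.12 on the log2 scale (SE 0.11, adjusted p = 0.687, edgeR), and the difference between the stocks of −0.85 was not called (SE 0.39, adjusted p = 0.222, edgeR). *mdy* overlaps *Cas* on the opposite strand (16821156 to 16825207), which had 1818 to 3942 counts per library and a log2 fold change of 0.22 in cond.2 females (adjusted p = 0.344, edgeR).

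*whd* (FBgn0261862, chromosome 2R, 10469473 to 10478567, minus strand) encodes withered, the carnitine palmitoyltransferase that commits fatty acids to the mitochondrion. Its level was 245, 173 and 194 CPM in cond.2 controls and 127, 187 and 143 CPM in cond.2 knockouts. The groups overlapped, with knockout 2 above control 2. The log2 fold change of −0.42 (SE 0.17, interval −0.83 to −0.02) had an unadjusted p of 0.0431 and was not called (adjusted p = 0.212, edgeR). Without libraries 1 of both groups it was −0.17 (adjusted p = 0.620, edgeR). Cond.19-4 levels were 106, 103 and 104 CPM in controls and 95.5, 96.5 and 103 CPM in knockouts, with a log2 fold change of −0.08 (SE 0.05, adjusted p = 0.450, edgeR). As with *mdy*, all 6 cond.19-4 libraries were below all 6 cond.2 libraries. The difference between the fold changes of the stocks was −0.33 (SE 0.19, adjusted p = 0.321, edgeR).

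The enzymes of β-oxidation split into those with small negative values in the cond.2 knockouts and those with almost no difference. *Mtpalpha* (FBgn0028479, chromosome 2L, 9573563 to 9576769, minus strand) and *Thiolase* (FBgn0025352, chromosome 2R, 23866648 to 23868603, minus strand, now named *Mtpbeta*) encode the α and β subunits of the mitochondrial trifunctional protein, which performs the last steps of the cycle on long chains. *Mtpalpha* had 202, 226 and 225 CPM in cond.2 controls, 208, 207 and 214 in cond.2 knockouts, 199, 196 and 218 in cond.19-4 controls and 203, 196 and 201 in cond.19-4 knockouts. Knockouts overlapped controls in each stock, and its log2 fold changes were −0.06 in cond.2 (adjusted p = 0.706, edgeR) and −0.03 in cond.19-4 females (adjusted p = 0.850, edgeR). *Thiolase* had 274, 258 and 245 CPM in cond.2 controls against 211, 229 and 229.7 CPM in cond.2 knockouts. In cond.19-4 females it had 239, 244 and 244 CPM in controls against 235, 231 and 218 CPM in knockouts. All 3 knockout libraries were below all 3 controls in each stock. The log2 fold changes were −0.22 in cond.2 (SE 0.08, unadjusted p = 0.0279, adjusted p = 0.183, edgeR) and −0.08 in cond.19-4 (SE 0.04, unadjusted p = 0.0855, adjusted p = 0.417, edgeR), neither of them called, and the cond.2 value was −0.14 without libraries 1 (adjusted p = 0.399, edgeR). *whd* (with *CG11777* and *CR45134*), *Mtpalpha* (with *CG3838*) and *Thiolase* (with *CG5569*) each overlap genes on the opposite strand, none of which was called in either knockout, whereas *Lsd-2*, *bmm*, *Hsl*, *scu* and *yip2* overlap none.

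*scu* (FBgn0021765, chromosome X, 18091259 to 18092853, plus strand) encodes scully, a mitochondrial hydroxyacyl-CoA dehydrogenase. It ran from 309 to 356 CPM in cond.2 controls, 344 to 358 in cond.2 knockouts, 383 to 401 in cond.19-4 controls and 374 to 388 in cond.19-4 knockouts. Its knockouts overlapped the controls in each stock (log2 fold change 0.05 in cond.2, adjusted p = 0.787, and −0.02 in cond.19-4, adjusted p = 0.843, edgeR). *yip2* (FBgn0040064, chromosome 2L, 9915253 to 9917220, plus strand) encodes a predicted thiolase that cleaves acetyl-CoA from the shortened chain. It had 341, 304 and 279 CPM in cond.2 controls and 227, 257 and 253 CPM in cond.2 knockouts. Every knockout was lower than every control, and the log2 fold change of −0.33 was not called (SE 0.10, unadjusted p = 0.0118, adjusted p = 0.153, edgeR), nor was the −0.21 without libraries 1 (adjusted p = 0.327, edgeR). In the cond.19-4 stock every knockout (262, 259 and 255.0 CPM) was instead higher than every control (245, 252 and 254.8 CPM), and the log2 fold change was 0.05 (SE 0.04, adjusted p = 0.629, edgeR). The difference between the stocks was −0.37 (SE 0.10, interval −0.59 to −0.14, unadjusted p = 0.00410), which was not called in edgeR (adjusted p = 0.110) and was called in DESeq2 (adjusted p = 0.0378), with a range of 0.0378 to 0.328 over 21 alternatives. Without cond.2 libraries 1 this difference was −0.24 (adjusted p = 0.167, edgeR).

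**Figure D2:**
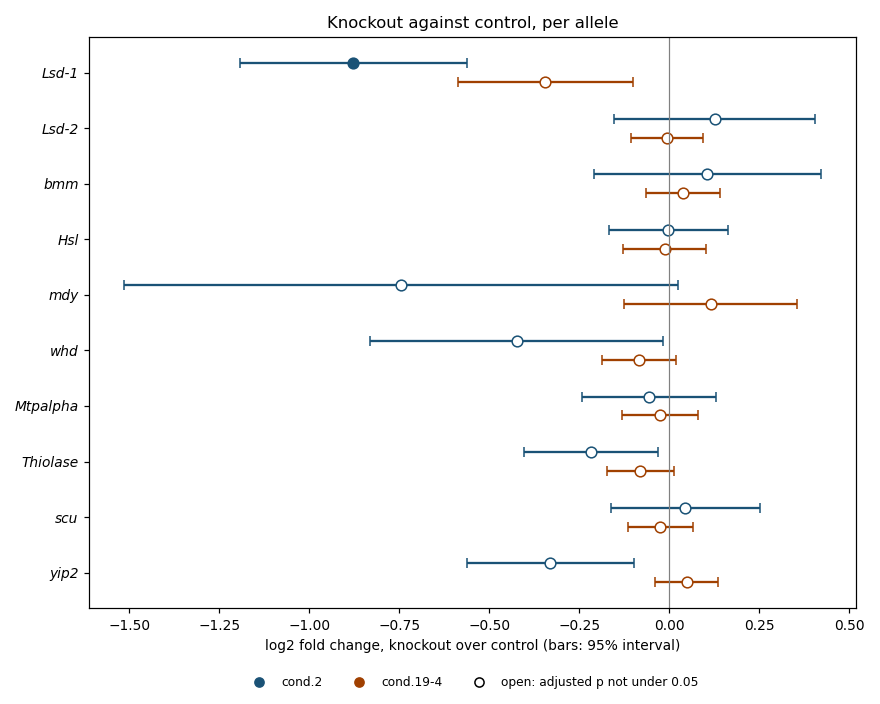
Log2 fold change of knockout over control (horizontal axis) for each transcript, with 95% intervals as bars, cond.2 in blue and cond.19-4 in brown, and filled points where the adjusted p was under 0.05. The only filled point is *Lsd-1* in cond.2, at −0.88, and the cond.2 intervals are wider than those of cond.19-4 throughout.

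Counted over the 10 transcripts, 1 was called in cond.2 females (*Lsd-1*, lower) and 9 were not, where 0.631% of the 9660 genes tested were called, 0.166% higher and 0.466% lower. In cond.19-4 females 0 of 10 were called in edgeR and 0 in DESeq2, with 1 at an unadjusted p under 0.05 in edgeR (15.4% of all genes). There edgeR called 3.7% of 9717 genes, 2.67% higher and 1.04% lower, and DESeq2 called 399 of 13310. Of the 10, 4 had an unadjusted p under 0.05 in cond.2 (*Lsd-1*, *yip2*, *Thiolase* and *whd*), all of them negative, where 22.4% of all genes had one. Knockout and control libraries did not overlap for 3 of 10 in cond.2 (*Lsd-1*, *Thiolase* and *yip2*, all lower), beside 14.3% of all genes that did not overlap and were lower. Higher without overlap were 0 of 10, beside 16.3% of all genes, so that the 3 of 10 in either direction stood beside 30.6%. In cond.19-4, 2 were lower without overlap (*Lsd-1* and *Thiolase*), beside 10.1% of all genes, and 1 was higher (*yip2*), beside 10.4%. The median log2 fold change of the 10 was −0.14 in cond.2 and −0.02 in cond.19-4, against −0.0070 and −0.0034 over all genes tested. With library totals in place of the trimmed mean of M values the whole-table split of 16 higher and 45 lower genes in cond.2 became 24 higher and 31 lower, and *Lsd-1* lost its call (log2 fold change −0.78). The difference between the stocks was called in edgeR for 0 of 10 and for 0.0598% of 10029 genes, with 3 of the 10 at an unadjusted p under 0.05 (22.2% of all genes). DESeq2 called 1 of the 10, *yip2*, among 465 calls over 13906 genes.

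The stocks differed in some of these genes without any heat shock. Among control females *mdy* was 3.63-fold and *whd* 1.95-fold higher in cond.2 than in cond.19-4. The controls of the stocks also differ in *ERR* genotype and had 10.0 and 6.57 CPM of *ERR*, whose part was not tested. The log2 difference was 1.86 for *mdy* (SE 0.28, adjusted p = 2.6e-04) and 0.96 for *whd* (SE 0.14, adjusted p = 2.0e-04), and each was called under all 21 alternatives (edgeR and DESeq2). *yip2* was also higher in cond.2 controls (0.29, SE 0.07, adjusted p = 0.00685, edgeR), where its 3 libraries (279 to 341 CPM) stood above the 3 of cond.19-4 (245 to 255 CPM). *scu* (−0.21, SE 0.06, adjusted p = 0.0164, edgeR) and *Lsd-2* (−0.24, SE 0.09, adjusted p = 0.0439, edgeR) were lower in cond.2 controls. Of 21 alternatives, the call of *Lsd-2* was lost under 15, that of *scu* under 4 and that of *yip2* under 1. The control groups of *scu* and of *Lsd-2* did not overlap.

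No call between the control groups was made for *Lsd-1* (log2 difference 0.25, interval −0.04 to 0.55, adjusted p = 0.149), *bmm* (−0.23, interval −0.45 to −0.0054, adjusted p = 0.0860), *Thiolase* (0.09, interval −0.04 to 0.22, adjusted p = 0.244), *Mtpalpha* (0.08, interval −0.05 to 0.22, adjusted p = 0.307) or *Hsl* (0.02, interval −0.10 to 0.14, adjusted p = 0.794, all edgeR). The count of 5 of 10, 3 higher and 2 lower, stood beside 46.9% of all genes tested, 22.7% higher and 24.2% lower, so that the 10 genes were called about as often as the table as a whole. At an unadjusted p under 0.05 it was 6 of 10 beside 53.7%. Control libraries did not overlap for 4 of 10 that were higher (*mdy*, *whd*, *yip2* and *Thiolase*, beside 27.8% of all genes) and 2 that were lower (*Lsd-2* and *scu*, beside 28.6%), 6 in all beside 56.4%. With library totals the median over all genes moved from −0.02 to −0.19, the split of all called genes from 2278 higher and 2429 lower to 1529 and 3686, and that of the 10 from 3 higher and 2 lower to 2 and 3. *mdy* and *whd* stayed higher and *scu* and *Lsd-2* lower under that scaling, *yip2* lost its call (0.12, adjusted p = 0.211, edgeR) and *bmm* gained one (−0.39, lower in cond.2). The control libraries of this comparison are those of the knockout comparisons, so that a low control library enters all of them.

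**Figure D3:**
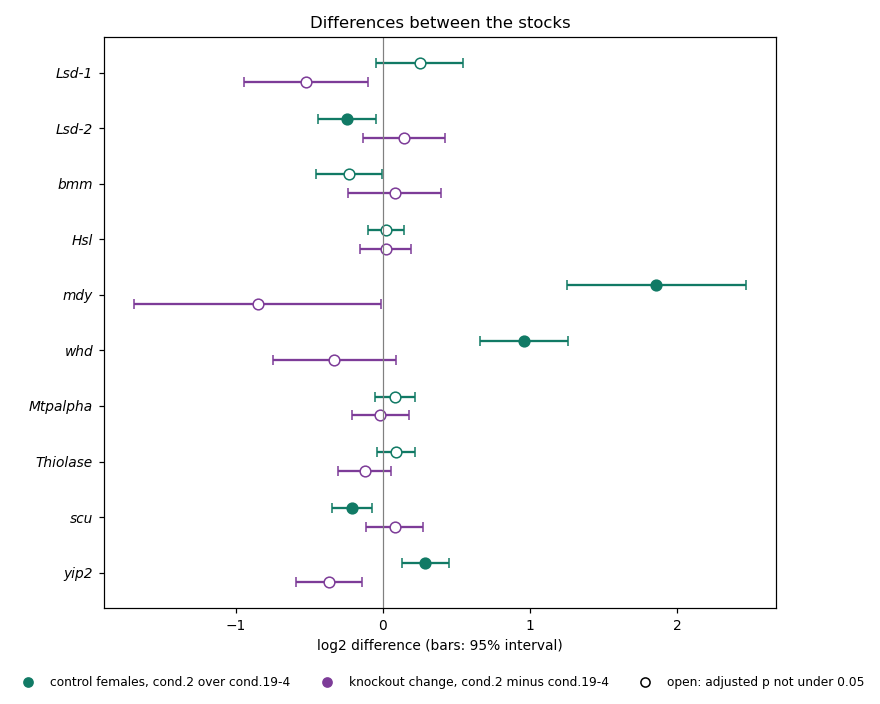
Log2 differences between the stocks (horizontal axis) with 95% intervals, in green for cond.2 over cond.19-4 controls and in purple for the cond.2 minus the cond.19-4 knockout change, filled where the adjusted p was under 0.05. *mdy* at 1.86 and *whd* at 0.96 lie farthest to the right among the controls, and no purple point is filled.

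Transcripts of other cell types moved with these values in the cond.2 stock. The 3 yolk protein genes, made by fat body and follicle cells, took 8.65, 5.65 and 8.26% of all counts in cond.2 controls and 2.90, 3.73 and 5.01% in cond.2 knockouts, against 2.77 to 3.37% in all cond.19-4 libraries. The 8 vitelline membrane genes, made by follicle cells in the middle of oogenesis, took 0.255, 0.622 and 0.443% in cond.2 controls, 1.57, 1.23 and 0.815% in cond.2 knockouts and 1.52 to 1.98% in cond.19-4 libraries. Both sums separated cond.2 knockouts from their controls, although 0 of 3 yolk and 0 of 8 vitelline membrane genes were called there. Between the control groups all 3 yolk genes were called higher and all 8 vitelline membrane genes lower in cond.2. Of 8 germline genes 1 was called lower in cond.2 knockouts, and between the control groups 2 were called higher and 5 lower in cond.2. Their summed share, 0.155 to 0.197% over the 12 libraries, overlapped between knockouts and controls of cond.2. That of 7 fat body genes was 0.130 to 0.199% in cond.2 controls and 0.101 to 0.126% in cond.2 knockouts with 0 of 5 tested genes called, while *Fbp2* and *Lsp1gamma* were at or near 0 in all libraries. In cond.19-4 females it was 0.128 to 0.147% in controls and 0.136 to 0.152% in knockouts. Most of the fat body sum was *Rfabg*, itself a lipid transport gene described below (mean 1349 CPM in cond.2 controls, where the sum ran from 1329 to 2285 CPM). In RNA from whole females, fewer cells of a type and less RNA per cell cannot be told apart.

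Across the 12 libraries *mdy* and *whd* followed the summed yolk protein level most closely (r = 0.924 and 0.902), *yip2* less so (0.803), and *Lsd-2* inversely (−0.831), as a description over libraries that share stocks and sequencing. Each r with a marker list relates log2 CPM to the log2 of the list's summed CPM, not to its share of counts. Within the 6 cond.2 libraries r was 0.804 for *Lsd-1*, 0.867 for *mdy*, 0.814 for *whd*, 0.880 for *Thiolase* and 0.858 for *yip2*. Within the 6 cond.19-4 libraries, where the yolk share hardly varied, it was 0.646, 0.409, −0.06, 0.186 and 0.432 for the same genes. With the fat body list, r for these genes in the same order was 0.762, 0.922, 0.944, 0.876 and 0.892 in cond.2. In cond.19-4 it was 0.0727, 0.808, −0.699, 0.0299 and 0.888. With the vitelline membrane list it was −0.866, −0.907, −0.795, −0.921 and −0.908 in cond.2, and 0.611, 0.238, 0.0241, 0.0608 and 0.400 in cond.19-4. The part of the yolk, vitelline membrane and fat body transcripts in the differences of *Lsd-1*, *mdy*, *whd*, *Thiolase* and *yip2* was not tested. In the cond.19-4 stock the yolk and vitelline membrane shares of knockouts lay within the range of controls, and *Lsd-1* was lower there in all 3 knockouts without a call. The germline share was lower in these knockouts (0.186 to 0.189%) than in controls (0.191 to 0.197%), with 0 of 8 genes called. Its r with *Lsd-1* within the 6 libraries was 0.853. The midgut share was lower in cond.19-4 knockouts (0.703 to 0.736%) than in controls (0.822 to 1.01%), with 3 of 8 midgut genes called lower and 1 higher, and within the 6 libraries r with *Lsd-1* was 0.907. The flight muscle shares there overlapped (0.0491 to 0.0614% in controls, 0.0564 to 0.0651% in knockouts), with 2 of 7 genes called higher, a median of 0.32 and an r of −0.838 with *Lsd-1*. In cond.2 females the flight muscle share was 0.0370 to 0.0422% in controls and 0.0463 to 0.0480% in knockouts, and that of neurons 0.00224 to 0.00259% and 0.00262 to 0.00281%, with no gene of either list called. The part of germline, midgut, flight muscle and neurons was not tested. Without both cond.2 libraries numbered 1 *Lsd-1* had a log2 fold change of −0.78 in cond.2 and no call (adjusted p = 0.203, edgeR).

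**Figure D4:**
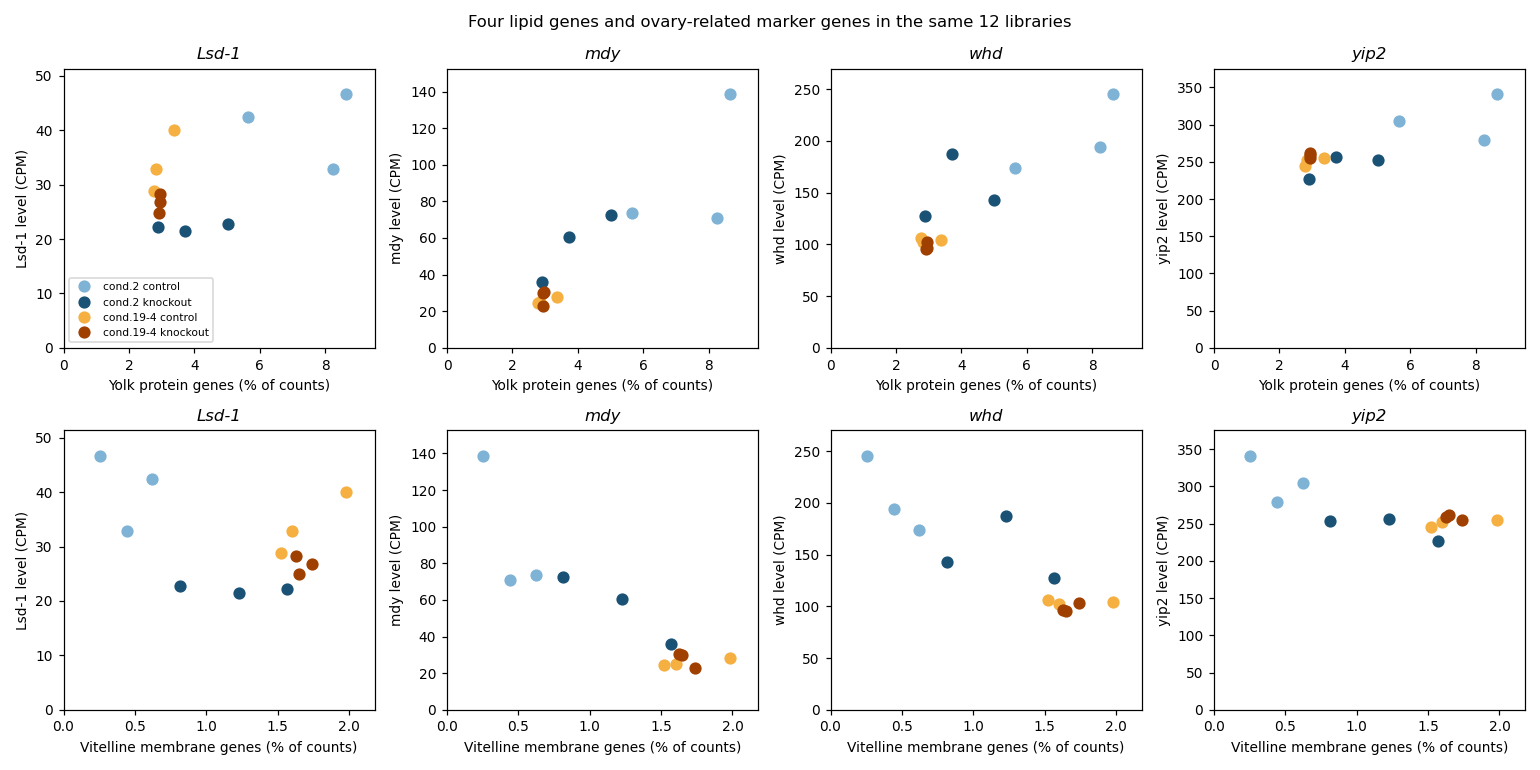
Levels of *Lsd-1*, *mdy*, *whd* and *yip2* in CPM (vertical axes) against the summed share of the yolk protein genes (upper row) and of the vitelline membrane genes (lower row) in percent of counts, 1 point per library, colored by group. *mdy* and *whd* are highest where the yolk share is high and the vitelline membrane share low. The *Lsd-1* levels of the cond.19-4 stock vary from 24.9 to 40.1 CPM at yolk shares of 2.77 to 3.37%, with the highest level in the library with the highest share.

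Among the 10 genes, levels across the 12 libraries ran together most closely for *mdy* and *whd* (r = 0.941), *Thiolase* and *yip2* (0.871), *Lsd-1* and *Thiolase* (0.869) and *bmm* and *scu* (0.861). The strongest inverse pairs were *whd* with *scu* (−0.902) and *Lsd-2* with *mdy* (−0.896). With group means removed, *Thiolase* and *yip2* stayed at 0.916, *Lsd-2* and *mdy* at −0.884 and *bmm* and *scu* at 0.812, whereas *mdy* and *whd* had 0.635 and *Lsd-1* and *Thiolase* 0.484. Other pairs rose, *mdy* and *Thiolase* from 0.565 to 0.916, *mdy* and *yip2* from 0.747 to 0.895 and *Mtpalpha* and *scu* from −0.181 to 0.840. Among 10028 other genes tested, the patterns most like *bmm* included *FKBP59* (r = 0.943) and *l(2)k14505* (0.928), and those most like *whd* were *alt* (0.996), *Ost48* (0.995) and *CG7289* (0.994). These correlations describe 12 libraries in 4 groups, so that differences between the stocks enter each of them.

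The surrounding pathway was read from 6 lists with 84 entries, all found in the table, of which 77 were tested in cond.2 and 78 in cond.19-4 females. In cond.2 females 0 of 77 were called in edgeR, beside 0.631% of all genes, with 26 at an unadjusted p under 0.05, beside 22.4%. DESeq2 called 4 of 81, all lower, among 569 calls over 13202 genes, 274 higher and 295 lower. The fit of all 12 libraries called 15 of 78, 14 of them lower, beside 1414 of 10029 genes, 786 higher and 628 lower. In cond.19-4 females 5 of 78 (6.41%) were called in edgeR, 3 higher and 2 lower, beside 3.7% of all genes. This count was 3 at an adjusted p of 0.01, 1 in the fit of all 12 libraries and 3 to 6 with 1 library left out. With at least 10 counts in every library it was 4 of 75, 2 higher and 2 lower. The median log2 fold change was −0.17 in cond.2 and 0.02 in cond.19-4. The lists were written with earlier results of these data known.

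Of the lipases, 4 of 13 tested were called in cond.19-4 knockouts, 2 in each direction, beside 2.67% of all genes higher and 1.04% lower. Among the 4, *CG6271* passed the filter on low counts only through the knockouts, so its call adds no support to this count. *mag*, magro, which encodes a gut lipase for dietary triglyceride, fell from 120 ± 18.7 to 74.3 ± 1.91 CPM (−0.68 on the log2 scale, SE 0.09, adjusted p = 6.3e-04, edgeR), and the predicted lipase gene *CG17192* from 105 ± 24.3 to 55.0 ± 2.22 CPM (−0.93, SE 0.12, adjusted p = 7.1e-04, edgeR). These 2 declines stood beside the lower midgut share of these knockouts, and its part in them was not tested. *CG6283* rose by 0.39 (adjusted p = 0.0481, edgeR) and *CG6271* by 2.96 from a low level (0.158 ± 0.0637 to 1.28 ± 0.523 CPM, adjusted p = 0.00666, edgeR), both named after their values were seen. *CG6271* ran from 0.0972 to 0.224 CPM in these controls and from 0.692 to 1.70 CPM in the knockouts. In cond.2 females *mag* had 23.8 ± 5.83 CPM in controls and 37.8 ± 22.7 CPM in knockouts, with no call (adjusted p = 0.454, edgeR). The lipases *CG5966* (49.8 ± 9.48 to 27.8 ± 6.30 CPM) and *Lip4* (29.3 ± 8.29 to 16.1 ± 4.90 CPM) were lower in all 3 cond.2 knockouts than in all 3 controls without a call in edgeR (adjusted p = 0.120 and 0.159), and both were called in DESeq2 (adjusted p = 0.00640 and 0.0429). Of all genes, 14.3% were lower in cond.2 without overlap, and these 2 lipases were named by their low p there.

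The other lists held 1 call between them in the knockouts. *Rfabg* (also *apolpp*), the apolipoprotein of the circulating lipoprotein lipophorin, rose in cond.19-4 females from 819 ± 46.2 to 960.3 ± 31.3 CPM (0.23 on the log2 scale, SE 0.05, adjusted p = 0.0235, edgeR) and stood at 1349 ± 345 CPM in cond.2 controls and 1003 ± 133 CPM in cond.2 knockouts (−0.43, adjusted p = 0.231, edgeR). *AkhR*, the receptor of Akh, had the largest negative fold change of the pathway in cond.2 females, from 28.9 ± 12.8 to 10.6 ± 4.20 CPM (−1.44, SE 0.38, adjusted p = 0.132 in edgeR and 0.00424 in DESeq2), and −0.15 in cond.19-4 females (adjusted p = 0.732, edgeR). The acyl-CoA synthetase gene *Acsl* followed with 1798 ± 688 against 845 ± 324 CPM in cond.2 (−1.09, SE 0.35, adjusted p = 0.160 in edgeR and 0.0221 in DESeq2). All 3 knockouts of *AkhR* and *Acsl* were below all 3 controls, beside 14.3% of all genes in cond.2. Both genes were named by their low p in this same comparison.

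In triglyceride synthesis and droplet proteins 0 of 15 were called in either stock, with medians of −0.11 in cond.2 and −0.0057 in cond.19-4. The acylglycerolphosphate acyltransferase genes *CG4753* (*Agpat4*) and *CG4729* (*Agpat3*) had log2 fold changes of −0.66 and −0.56 in cond.2 (adjusted p = 0.162 and 0.202, edgeR) and of −0.0049 and −0.0057 in cond.19-4 females. In the carnitine shuttle and acyl-CoA synthetases 0 of 12 were called, and *colt*, the carnitine-acylcarnitine carrier next to *whd* in the pathway, went from 213 ± 45.2 to 153 ± 18.4 CPM in cond.2 (−0.48, adjusted p = 0.162, edgeR). In the other genes of mitochondrial β-oxidation 0 of 17 were called in either stock, with medians of −0.14 and 0.05. There *CG4592*, a predicted enoyl-CoA isomerase gene, had −0.42 in cond.2 (adjusted p = 0.157) and 0.12 in cond.19-4 (adjusted p = 0.496, edgeR). In peroxisomal β-oxidation 0 of 9 were called, and *Mfe2*, its multifunctional enzyme, had −0.40 in cond.2 (adjusted p = 0.171) and 0.07 in cond.19-4 (adjusted p = 0.639, edgeR). *srl*, the fly counterpart of the coactivator PGC-1, was higher in all 3 cond.2 knockouts (137 ± 18.3 to 181 ± 20.7 CPM, 0.40, adjusted p = 0.162, edgeR) with no call. It was named by its low p in cond.2, where 16.3% of all genes were higher without overlap.

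Between the control groups 48 of 78 pathway genes (61.5%) were called, 34 higher and 14 lower in cond.2, beside 46.9% of all genes, 22.7% higher and 24.2% lower. Beside *mdy*, the acyltransferase gene *mino* was higher by 1.62 on the log2 scale (adjusted p = 2.0e-05, edgeR). Beside *whd*, *Acsl* was higher by 3.07 (adjusted p = 1.7e-05, edgeR) and *colt* by 0.73 (adjusted p = 8.8e-04, edgeR). *Apoltp*, which loads lipid onto lipophorin, was higher by 4.40 (adjusted p = 5.8e-06, edgeR), and *mag* was lower by 2.34 (adjusted p = 6.3e-04, edgeR). *mino* was named after its values were seen.

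**Figure D5:**
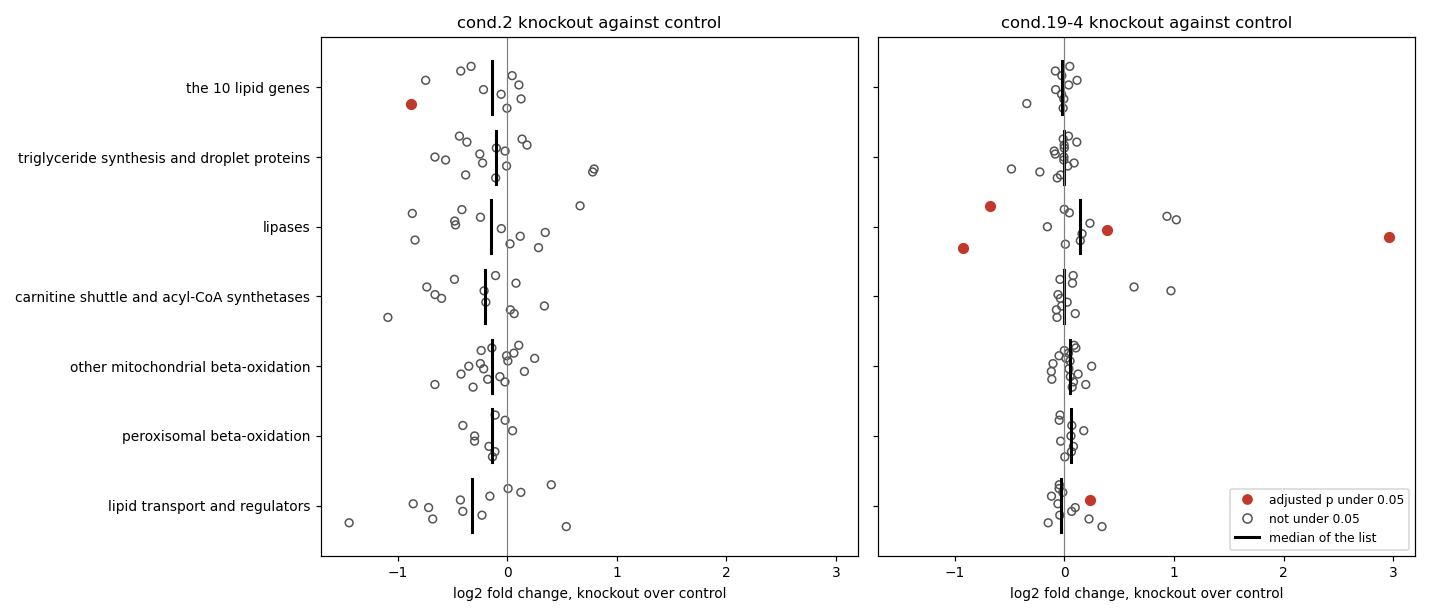
Log2 fold change of knockout over control (horizontal axes) for the 10 lipid genes and the 6 pathway lists in cond.2 (left) and cond.19-4 females (right), 1 point per gene, red where the adjusted p was under 0.05, with black bars at list medians. The cond.2 points are spread widely with 1 red point, *Lsd-1*, while most cond.19-4 points lie near 0 and 4 of the 5 red ones are lipases. Of these lipases, *CG6271* passed the filter on low counts only through the knockouts.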

How the data were processed

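RNA of whole females was made into libraries with NEBNext Ultra and sequenced as paired reads of 150 bp, which the authors mapped with TopHat and assigned to genes with HTSeq. They deposited raw, unnormalized counts with a length in bp for each gene. Tool versions, strand use and the genome build were not given in the sources used here. Coordinates are those of the table. Its 17558 gene identifiers were looked up in Ensembl's BDGP6 annotation, where 17252 occurred, 16977 with equal start and end, including all 10 members.

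Counts were tested with edgeR 4.0.16 (quasi-likelihood, trimmed mean of M values, filterByExpr) in R 4.3.3, each stock on its own 6 libraries, and on all 12 libraries for the interaction and the difference between controls. Group and replicate came from the sample titles, and 0 sample columns were left out. Results were also computed with DESeq2 1.42.0, its size factors in edgeR, library totals, at least 1 or at least 10 counts, a threshold of 0.01, a replicate block, other sets of libraries, each library left out and, for the interaction, limma-trend 3.58.1. Leaving out both cond.2 libraries numbered 1 was added after seeing the data. The test was also run on simulated counts, drawn independently for each library with the spread fitted for each gene. Such counts hold no outlying library, so that run cannot show how far the calls depend on the cond.2 libraries numbered 1.

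The 10 members and all lists were chosen with earlier results of these data known. All 10 were named. Per pathway list, up to 4 genes were eligible for naming, by the lowest p in either knockout comparison. For *bmm* and *whd*, the 3 genes with the highest Pearson r of log2 CPM (prior count 2) were taken, 1 of which is not reported here. Marker lists numbered 8. Same-numbered knockouts and controls did not deviate together (r from −0.298 to 0.0466), so replicate numbers were not taken as pairs. Per the methods, RNA came from 3 independent experiments. With 3 libraries against 3, an exact permutation test cannot go below p = 0.1.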

Additional observations from a re-analysis of the deposited data

Results flagged for a closer look

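*yip2*, the β-oxidation thiolase, had log2 fold changes of opposite sign in the stocks, −0.33 in cond.2 (adjusted p = 0.153) and 0.05 in cond.19-4 (adjusted p = 0.629, edgeR), neither of them called. All 3 cond.2 knockout libraries were below all 3 cond.2 controls, and all 3 cond.19-4 knockout libraries were above all 3 cond.19-4 controls, the nearest being 255.0 and 254.8 CPM. The log2 fold changes differed by −0.37, which edgeR did not call (adjusted p = 0.110) and DESeq2 did (adjusted p = 0.0378), and by −0.24 without cond.2 libraries 1 (adjusted p = 0.167, edgeR). The yolk protein share was 5.65 to 8.65% of counts in cond.2 controls and 2.90 to 5.01% in cond.2 knockouts. The r of *yip2* with the yolk list was 0.858 in cond.2 and 0.432 in cond.19-4, and with the fat body list 0.892 and 0.888. The part of yolk and fat body transcripts in the difference was not tested.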

How the results depend on the processing

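Of 710 alternative values of the 10 transcripts, 641 kept their direction and their side of the threshold, 29 lost a call, 10 gained one and 30 changed sign, and none of the last was called before or after. The count of 1 in cond.2 knockouts became 0 at an adjusted p of 0.01, with library totals and without both cond.2 libraries numbered 1, and 3 with all 12 libraries in 1 fit, where *Thiolase* (adjusted p = 0.0378) and *yip2* (0.0174) joined *Lsd-1*. All 3 were lower, in a fit that called 1414 of 10029 genes, 786 higher and 628 lower. Leaving out 1 library gave 0 to 1 in cond.2 knockouts. The adjusted p of *Lsd-1* ran from 3.6e-05 in DESeq2 to 0.292 with the replicate block. The count of 0 in cond.19-4 knockouts became 1 (*Lsd-1*, adjusted p = 0.0357) when every gene with at least 1 count was kept, and ran from 0 to 1 with 1 library left out. For the difference between the stocks it was 1 in DESeq2 (*yip2*) and 0 to 0 with 1 library left out. Between the controls the count of 5 became 3 at 0.01 and 3 with control libraries only, and ran from 3 to 7 with 1 library left out.

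With the replicate block the count in cond.2 knockouts was 0 of 10 (*Lsd-1*, log2 fold change −0.86, adjusted p = 0.292) and the count over all genes 9. The difference between the stocks had 1 gene called with the block, and between the controls *Lsd-2* lost its call (−0.24, adjusted p = 0.0684). The block changed no other call of the 10.

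In cond.2 knockouts *Hsl* turned positive in DESeq2 (0.0031), with its size factors (0.0022), with library totals (0.089), at 1 count (0.0033) and in the 12-library fit (0.0059), as did *Mtpalpha* with library totals (0.033). Without libraries 1 of both cond.2 groups *Lsd-2* (−0.045), *bmm* (−0.015) and *scu* (−0.024) turned negative, as did the difference between the stocks of *Lsd-2* (−0.026), *bmm* (−0.042) and *Hsl* (−0.025). That of *Mtpalpha* became 0.068 with library totals. Between the controls, library totals gave *Hsl* −0.15, *Mtpalpha* −0.083 and *Thiolase* −0.083. With 1 library left out, sign changes occurred in cond.2 for *bmm* (−0.022 to 0.24), *Hsl* (−0.041 to 0.043) and *scu* (−0.023 to 0.080), and in cond.19-4 for *Lsd-2* (−0.033 to 0.036), *Hsl* (−0.046 to 0.017) and *Mtpalpha* (−0.057 to 0.024). They also occurred in the difference between the stocks for *bmm* (−0.050 to 0.20), *Hsl* (−0.017 to 0.055) and *Mtpalpha* (−0.073 to 0.013), and between the controls for *Hsl* (−0.013 to 0.060).

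Over all genes, 61 calls in cond.2 became 16 at 0.01, 569 in DESeq2, 97 at 1 count, 1414 in the 12-library fit, 19 without libraries 1 and 15 to 44 with 1 library left out. In cond.19-4, 360 became 197 at 0.01, 94 in the 12-library fit and 224 to 420 with 1 library left out. The 6 of the difference between the stocks became 1 at 0.01, 465 in DESeq2, 3 with library totals, 40 at 1 count, 26 without libraries 1, and 1 to 489 with 1 library left out. The cause of these shifts was not tested. The 10 genes had at least 418 counts per library, and the median biological coefficient of variation was 0.130 in cond.2 and 0.0763 in cond.19-4.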
